A study of Mus musculus with 6 samples.

Results

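The genes described are those of the cytosolic ribosomal proteins in the mouse hippocampus. They were chosen by name alone: every symbol that begins with Rpl or Rps and a digit, together with Rplp0, Rplp1, Rplp2 and Rpsa, without the Rps6k kinases and without symbols marked -ps. The rule took 86 of 25896 symbols in the count tables. Of these, 43 encode proteins of the large subunit, 31 proteins of the small subunit and 3 the stalk, 8 are paralogs or retrocopies of such genes, and 1, Rps19bp1, encodes a binding partner of the ribosomal protein RPS19. Fau, whose product is cut into a ribosomal protein and a ubiquitin-like part, carries another name and was counted with related genes. The table's symbols Rps3a and Rps4y2 stand for the genes now called Rps3a1 and Rps4l. A count was seen in 85 members, and 83 passed the filter on low counts.

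Polyadenylated RNA was sequenced from 3 Dicer1-ifKO and 3 WT libraries, each made from the pooled hippocampal RNA of 3 adult male C57BL/6 mice. Dicer1-ifKO mice were homozygous for floxed Dicer1 and carried CaMKIIa-creERT2, a recombinase that tamoxifen activates, under a promoter used by excitatory neurons of the forebrain. WT mice were also Dicer1 flox/flox but had no recombinase, so the transgene and the loss of Dicer1 cannot be told apart. All mice, WT included, received tamoxifen, 3 weeks before death, and were 3 months old. Glia, vessels and neurons without the recombinase kept their Dicer1 and are in every library.

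Ribosomes translate mRNA into protein, and each one is assembled, largely in the nucleolus, from ribosomal RNA and the set of ribosomal proteins. Most ribosomal protein mRNAs are short, abundant and start with a cytosine followed by a run of pyrimidines, the terminal oligopyrimidine motif. Through this motif the kinase complex mTORC1 and the RNA-binding protein LARP1 set their translation and stability together. In neurons ribosomes also work in dendrites, where new protein synthesis serves synaptic plasticity. MicroRNAs, which Dicer1 cuts from their precursors, usually act through sites in the 3′ UTR of an mRNA.

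Pyrimidine runs near the start, a feature that the choice of members did not use, were found in most but not all of these genes. Below, the 30 bases around the annotated start of 8 genes are given 5′ to 3′, 10 before and 20 from the start on, from RefSeq (GRCm38.p6). Capitals mark, for each gene, the longest run of a C followed by at least 4 pyrimidines (C or T) that begins within 20 bases of the start, searched on the gene's own strand. Shorter runs of the same kind stay in lower case, and the genes are those the results turn on.
Rps6 (chr4:86857348-86857377, minus strand): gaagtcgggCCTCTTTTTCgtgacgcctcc
Rps27 (chr3:90213629-90213658, minus strand): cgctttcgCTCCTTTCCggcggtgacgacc
Rplp2 (chr7:141447641-141447670, plus strand): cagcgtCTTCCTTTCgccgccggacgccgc
Rpl12 (chr2:32961702-32961731, plus strand): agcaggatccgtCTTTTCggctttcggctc
Rps2 (chr17:24720053-24720082, plus strand): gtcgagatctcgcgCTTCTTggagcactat
Rplp0 (chr5:115559457-115559486, plus strand): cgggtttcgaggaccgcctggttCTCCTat
Rpsa (chr9:120127756-120127785, plus strand): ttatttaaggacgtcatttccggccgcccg
Rpl22 (chr4:152325716-152325745, plus strand): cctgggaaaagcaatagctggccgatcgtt
In Rps6, Rps27 and Rplp2 the run spans the annotated start, in Rpl12, Rps2 and Rplp0 it lies inside the annotated transcript, and in Rpsa and Rpl22 no such run begins in the window searched. Of 62 tested members with an entry, 12 (19.4%) had a C at the annotated first base that was followed by at least 4 pyrimidines, whether or not the run also reached further upstream, against 268 (2.37%) of 11324 tested genes with an entry. A run that begins within 20 bases of the start on either side was found in 46 members (74.2%) and in 5629 genes (49.7%). Annotated starts can differ from those used in hippocampus, and a match describes the letters only. Nor is the start shown always that of the transcript counted. The distance was 281 bases in Rplp2, 153 in Rpl12 and 141 in Rpl22, against 0 to 45 in the others shown. Among all members with an entry it reached 2614 bases, in Rpl18.

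Counts over 1 transcript per gene summed to 15409076 to 20677840 in Dicer1-ifKO and to 11832795 to 16125474 in WT, so that 3 counts correspond to 0.146 to 0.255 CPM (counts scaled to library size). Markers of excitatory neurons were high in every library, with summed levels of 5150 to 5500 CPM in Dicer1-ifKO and 5000 to 5150 CPM in WT. Dicer1 had counts of 896, 1134 and 1187 in Dicer1-ifKO and of 653, 985 and 908 in WT, or 59.7 ± 2.82 and 57.8 ± 3.63 CPM (SD, n = 3 each). Its single transcript in the table spans the gene, so the value does not check the deletion of the floxed exons. No library pair of a genotype agreed within sampling noise. Of 17405 genes tested, 22 rose and 6 fell in Dicer1-ifKO at an adjusted p below 0.05 (edgeR's quasi-likelihood F-test, adjusted by Benjamini-Hochberg over all genes). That is 0.161% of genes in either direction and 0.0345% in the lower direction.

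No ribosomal protein gene passed this test, and the differences were small: across the 83 tested members the log2 fold change of Dicer1-ifKO over WT ran from -0.20 to 0.06, with a median of -0.06. A negative log2 fold change was found in 72 members and a positive one in 11, where 51% of all genes tested were negative and the median of all genes was 0. The smallest adjusted p among the members was 0.195 (edgeR, Benjamini-Hochberg). In edgeR 18 members had an unadjusted p below 0.05, all of them lower in Dicer1-ifKO, beside 10.4% of all genes in either direction and 4.8% in the lower direction. DESeq2 called 0 members and gave 13 an unadjusted p below 0.05. Any member to which its own filter gave no adjusted p counted as not called. In 15 members the 3 Dicer1-ifKO values all lay below the 3 WT values, and in 0 members did they all lie above. The values of the groups did not overlap in 16.1% of all genes, and in 8.08% with Dicer1-ifKO below. As these genes are present in every cell of the tissue, fewer cells of a type and less RNA per cell cannot be told apart.

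As a share of all counts, the members together held 1.01%, 1.02% and 1.02% in Dicer1-ifKO replicates 1, 2 and 3, against 1.11%, 0.997% and 1.09% in WT replicates 1, 2 and 3. The Dicer1-ifKO libraries were nearly equal, whereas the WT libraries spread on both sides of them, so the groups overlapped. The means were 1.02 ± 0.00639% in Dicer1-ifKO and 1.07 ± 0.0599% in WT (SD, n = 3 each), a difference of -0.0496 percentage points, which is smaller than the SD of the WT libraries. Genes of the mitochondrial genome, which take a far larger share, held 9.18% to 9.39% in Dicer1-ifKO and 8.47% to 9.99% in WT, and without them the difference was -0.0534 points.

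**Figure D1:**
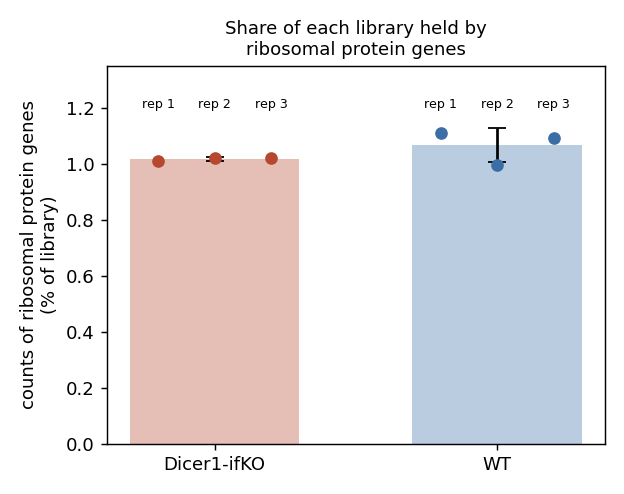
Share of counts over 1 transcript per gene (percent) held by the ribosomal protein genes in each library. Dicer1-ifKO is on the left and WT on the right, with the mean and SD of each group (n = 3). The Dicer1-ifKO points sit close together at 1.01% to 1.02%, with WT replicate 2 below them at 0.997% and WT replicates 1 and 3 above them.

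The size of the difference depended on which WT library it was read against. Relative to each gene's mean over the 6 libraries, the median member stood at -0.05, -0.04 and -0.03 on the log2 scale in Dicer1-ifKO replicates 1, 2 and 3, and at 0.10, -0.07 and 0.07 in WT replicates 1, 2 and 3. Members above their own mean numbered 17, 20 and 32 in the Dicer1-ifKO libraries and 79, 18 and 74 in the WT libraries. WT replicate 1 lay above every Dicer1-ifKO library in 73 members and WT replicate 3 in 57, while WT replicate 2 lay below every Dicer1-ifKO library in 44. The highest of the 6 values fell in WT replicate 1 in 57 members and the lowest in WT replicate 2 in 44.

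**Figure D2:**
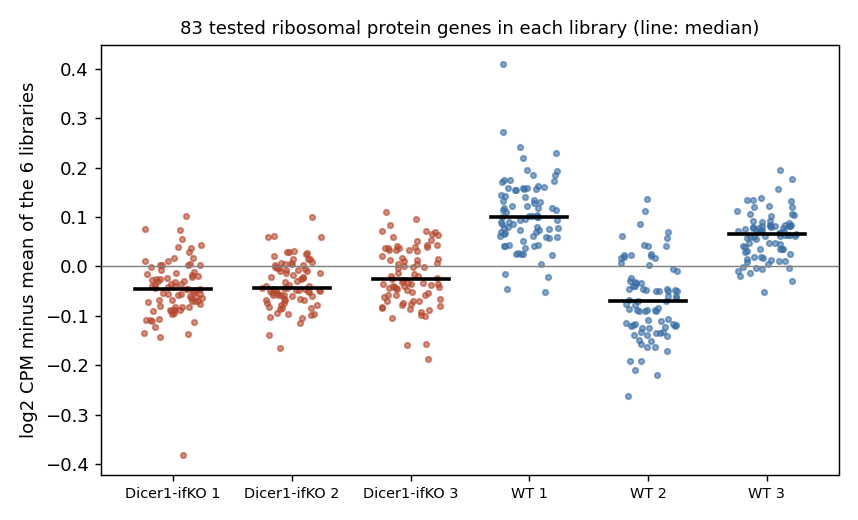
Deviation of each ribosomal protein gene from its own mean over the 6 libraries (log2 CPM), by library, with Dicer1-ifKO libraries left of WT libraries. Medians are -0.05, -0.04 and -0.03 in Dicer1-ifKO, and 0.10, -0.07 and 0.07 in WT, where replicate 2 stands apart from replicates 1 and 3.

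Leaving out 1 WT library moved the description in both directions. Without WT replicate 1, 55 members were negative and the median was -0.02. Without WT replicate 2, 82 of 83 were negative, the median was -0.11, 39 had an unadjusted p below 0.05, and 2 passed the edgeR test over all genes with Benjamini-Hochberg adjustment: Rplp0 at a log2 fold change of -0.26 (adjusted p 0.0279) and Rps2 at -0.22 (adjusted p 0.0335). Calls rose over all genes as well in the fit without WT replicate 2. Of 17584 genes tested, 72 were called higher and 33 lower, against 22 and 6 with all libraries. The share of all genes with an unadjusted p below 0.05 in that fit is not reported here. Nothing in the labels sets WT replicate 2 apart. Over all genes of known length, deviations correlated with length (Spearman) at -0.26, 0.06 and -0.12 in WT replicates 1, 2 and 3. The values were 0.11, 0.14 and 0.08 in Dicer1-ifKO replicates 1, 2 and 3. By this measure WT replicate 2 stood with the Dicer1-ifKO libraries, and WT replicates 1 and 3 stood apart. The part of length in the WT split was not tested. Within a group, the Dicer1-ifKO libraries were the more alike: the SD of log2 CPM was smaller in Dicer1-ifKO than in WT in 71 of 83 members, with medians of 0.0445 and 0.0976. Among all genes this was so in 58.1%, with medians of 0.0853 and 0.102.

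The stalk of the large subunit, a flexible arm that recruits and activates the translation factors, had a negative log2 fold change in all of its 3 genes, none of which passed the test. Rplp0 (chromosome 5, 115559467 to 115563727, GRCm38 as in the files), the base of the stalk, had 85.3, 85.9 and 86.4 CPM in Dicer1-ifKO and 106, 82.6 and 99.7 CPM in WT. The groups overlapped through WT replicate 2 alone. Its log2 fold change was -0.16, with an SE of 0.07 and an adjusted p of 0.393 (edgeR). Rplp1 (chromosome 9, 61913284 to 61914538), an acidic arm protein, had 217, 229 and 244 CPM in Dicer1-ifKO and 282, 221 and 241 CPM in WT, a log2 fold change of -0.10 (SE 0.07) that was 0.00 without WT replicate 1 and -0.18 without WT replicate 2. Rplp2 (chromosome 7, 141447370 to 141451585), its dimer partner, had 63.0, 62.7 and 62.5 CPM in Dicer1-ifKO and 62.5, 68.7 and 69.6 CPM in WT, likewise -0.10 (SE 0.06). In Rplp1 the high WT library was replicate 1, and in Rplp2 replicate 1 was the low one, so these partners did not follow the WT libraries together.

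In the small subunit 29 of 31 genes had a negative log2 fold change, with a median of -0.06. In 6 of them every Dicer1-ifKO value lay below every WT value, beside 8.08% of all genes tested. Rpsa (chromosome 9, 120127766 to 120132369), a protein at the back of the small subunit also known as the laminin receptor, had 227, 227 and 231 CPM in Dicer1-ifKO and 263, 245 and 254 CPM in WT. Every Dicer1-ifKO library lay below every WT library, with a log2 fold change of -0.15, an SE of 0.04 and an adjusted p of 0.198 (edgeR). Rps2 (chromosome 17, 24720063 to 24721926), a protein near the mRNA entry channel, had 218, 229 and 232 CPM in Dicer1-ifKO and 267, 231 and 262 CPM in WT. The groups overlapped narrowly, Dicer1-ifKO replicate 3 with WT replicate 2, and the log2 fold change was -0.16 (SE 0.05).

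Rps6 and Rps27 had values near equality. Rps6 (chromosome 4, 86854660 to 86857412), the substrate of the S6 kinases whose phosphorylation is widely read as a sign of neuronal activity, had 169, 166 and 175 CPM in Dicer1-ifKO and 182, 164 and 173 CPM in WT, a log2 fold change of -0.02 (SE 0.05). The Dicer1-ifKO values lay within the range of the WT values. Rps27 (chromosome 3, 90212725 to 90213615), a zinc-binding protein, had the highest log2 fold change of all members, 0.06 (SE 0.05), from 89.6, 86.5 and 91.3 CPM in Dicer1-ifKO and 89.9, 80.3 and 86.7 CPM in WT.

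In the large subunit 7 of 43 genes had every Dicer1-ifKO value below every WT value, beside 8.08% of all genes tested. A negative log2 fold change was found in 34, with a median of -0.06. Rpl34 (chromosome 3, 130726839 to 130730398) had the lowest of all members, -0.20, with an SE of 0.06 and an adjusted p of 0.206 (edgeR). Its levels were 58.0, 63.9 and 57.4 CPM in Dicer1-ifKO and 72.8, 64.8 and 68.7 CPM in WT, with Dicer1-ifKO replicate 2 close to WT replicate 2. Rpl12 (chromosome 2, 32961559 to 32964496), which lies at the foot of the stalk, had the smallest p of the members. It showed 123, 119 and 121 CPM in Dicer1-ifKO and 137, 133 and 135 CPM in WT, so that the groups were well separated and each was tight. The log2 fold change was -0.16, with an SE of 0.05 and an adjusted p of 0.195 (edgeR), and WT replicate 2 stood with the other WT libraries in this gene. Rpl39 (chromosome X, 37082520 to 37085402), a very small protein in the wall of the exit tunnel, had 32.5, 35.8 and 30.8 CPM in Dicer1-ifKO and 34.6, 38.0 and 39.7 CPM in WT (log2 fold change -0.18, SE 0.07), with overlapping groups.

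**Figure D3:**
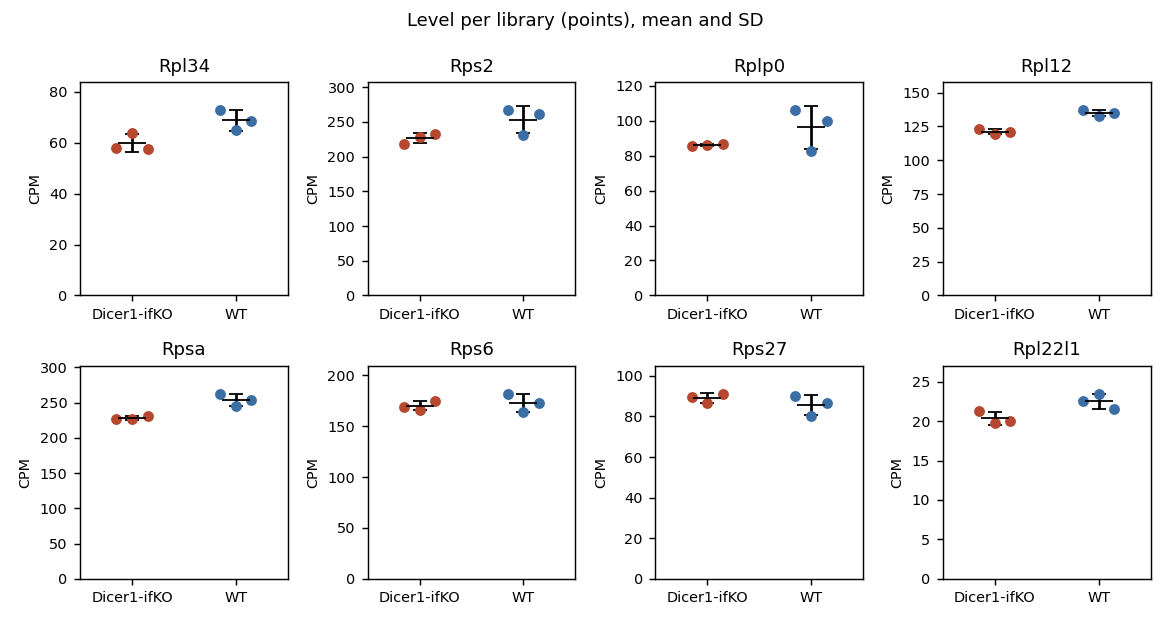
CPM in each of the 3 Dicer1-ifKO libraries (left in each panel) and the 3 WT libraries (right), with the mean and SD of each group, for 8 chosen ribosomal protein genes. Rpl12 and Rpsa show no overlap between the groups, in Rplp0 and Rps2 WT replicate 2 lies below or among the Dicer1-ifKO libraries, and in Rps6 the Dicer1-ifKO values lie within the range of the WT values.

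The positive end of the large subunit was close to 0. Rpl37a (chromosome 1, 72711260 to 72713809), a zinc-binding protein, had 79.5, 77.1 and 74.7 CPM in Dicer1-ifKO and 79.3, 62.9 and 81.3 CPM in WT, a log2 fold change of 0.05 (SE 0.07). WT replicate 3 was the highest of the 6 libraries and WT replicate 2 the lowest, and without WT replicate 2 the log2 fold change was -0.06. Rpl22 (chromosome 4, 152325867 to 152334071) had 0.03 (SE 0.06) and Rpl7a (chromosome 2, 26910764 to 26913318) had 0.02 (SE 0.06). Rpl3 (chromosome 15, 80077781 to 80083406), a protein near the catalytic centre, averaged 363 ± 15.5 CPM in Dicer1-ifKO and 360 ± 20.2 CPM in WT (SD, n = 3 each).

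**Figure D4:**
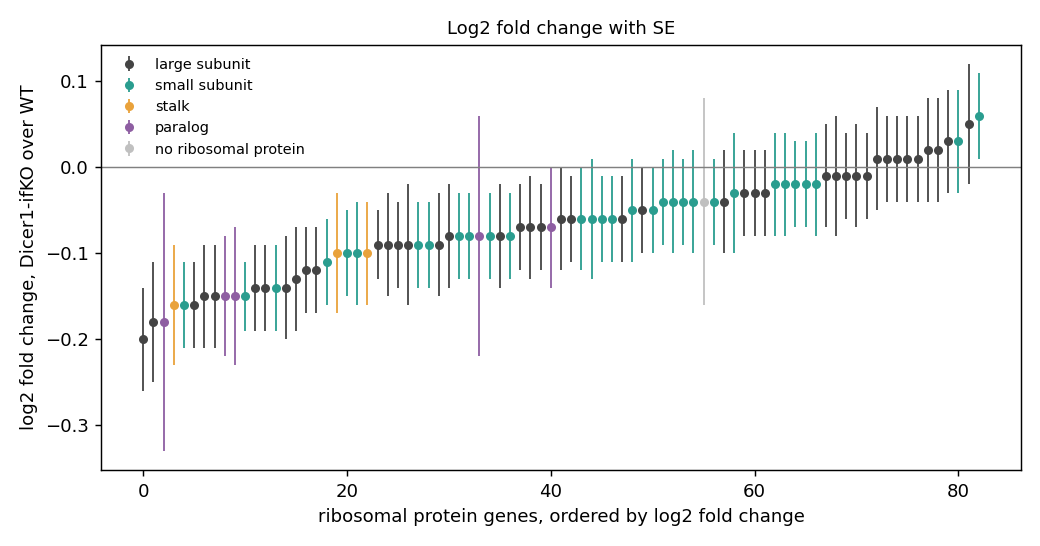
Log2 fold change of Dicer1-ifKO over WT for each tested ribosomal protein gene, with SE (vertical axis), in order of the log2 fold change along the horizontal axis and coloured by role. Of the 83 points 72 lie below 0, all lie between -0.20 and 0.06, and none passed the edgeR test.

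Paralogs allow a ribosome to be built with an alternative protein, and some are used mainly in muscle or testis. Of 8 such genes 5 were tested, all with a negative log2 fold change, and a median of -0.15. Rpl22l1 (chromosome 3, 28805436 to 28807352), the paralog of Rpl22, had 19.8 to 21.3 CPM in Dicer1-ifKO and 21.6 to 23.5 CPM in WT, without overlap (log2 fold change -0.15, SE 0.08, edgeR adjusted p 0.518). Rpl22 itself had 62.8, 65.2 and 62.0 CPM in Dicer1-ifKO and 63.8, 57.3 and 64.7 CPM in WT, with overlap. The difference between the pair was not tested.

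Rpl7l1 (chromosome 17, 46773907 to 46782656), a Rpl7-like gene, had 27.3, 27.8 and 28.6 CPM in Dicer1-ifKO and 31.1, 30.3 and 31.9 CPM in WT, without overlap (log2 fold change -0.15, SE 0.07, edgeR adjusted p 0.416). Rpl7 (chromosome 1, 16101295 to 16104662) had -0.03 (SE 0.05). Rps27l (chromosome 9, 66946086 to 66949512), a target of p53 in the response to DNA damage, was low, at 5.78, 6.00 and 5.86 CPM in Dicer1-ifKO and 8.34, 5.35 and 6.58 CPM in WT, and its log2 fold change of -0.18 (SE 0.15) was -0.02 without WT replicate 1 and -0.32 without WT replicate 2. Rpl36a and Rpl36al had -0.09 and -0.07 (SE 0.07 each), and Rps4x and Rps4y2 had -0.08 each (SE 0.05 and 0.14). Rps4y2 overlaps the more abundant Tmtc1 on the other strand.

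The tissue-restricted paralogs were at or near the limit of detection in both genotypes. Rpl3l, known from striated muscle, had 2, 5 and 6 counts in Dicer1-ifKO and 5, 5 and 9 counts in WT. Rpl39l, known from testis, had 2, 0 and 3 counts in Dicer1-ifKO and 0, 0 and 3 counts in WT. Rpl10l, which replaces the X-linked Rpl10 in spermatogenesis, had 0 counts in all 6 libraries. Rpl10 (chromosome X, 74270812 to 74273135) had -0.06 (SE 0.05). Rps19bp1 (chromosome 15, 80260614 to 80264306), which is no ribosomal protein, had 8.31, 7.72 and 8.55 CPM in Dicer1-ifKO and 9.11, 7.43 and 8.79 CPM in WT.

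The mRNA levels per length were spread widely. Among 71 tested members with a known transcript length, Rplp1 had the highest level, 479 CPM per kb over all 6 libraries, followed by Rps29 with 411 and Rpl23a with 371. The lowest were Rpl7l1 with 11.3, Rps19bp1 with 9.92 and Rps4y2 with 9.20 CPM per kb, which are 2 paralogs and the gene that encodes no ribosomal protein. Among the genes of the subunits themselves the lowest were Rps20 with 18.3, Rps15a with 22.0 and Rpl18 with 24.0 CPM per kb, named here after their values were seen. These were represented by transcripts of 3706, 5130 and 2989 nt, far above the members' median of 791 nt, which lowers their level per length. Rps29 (chromosome 12, 69157722 to 69159186) and Rpl23a (chromosome 11, 78180935 to 78183584) had log2 fold changes of -0.02 and 0.01 (SE 0.05 each).

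Sequence copies limit what single members can show. Copies, as processed pseudogenes, were found only by symbols marked -ps, and any under other names were left out. Symbols so marked numbered 60, of which 55 had a mean of at least 10 counts. Their counts came to 13.3% to 13.7% of the members' own in Dicer1-ifKO and to 13.4% to 13.5% in WT, and reads of a gene and its copies cannot be told apart with certainty. The copies differed in weight, as 3 named after their values were seen show. Rpsa-ps10 had 1625, 2006 and 2256 counts in Dicer1-ifKO and 1474, 1781 and 1972 counts in WT, and Rps2-ps6 had 1384, 1636 and 1933 counts in Dicer1-ifKO and 1311, 1479 and 1746 counts in WT, both a large fraction of their parent genes. Rpl12-ps1 had 25, 36 and 40 counts in Dicer1-ifKO and 21, 22 and 52 counts in WT, few beside the counts of Rpl12. Of the 32 members with a symbol marked -ps 29 were negative, with a median of -0.07 on the log2 scale. Of the 51 tested members with no such symbol 43 were negative, with a median of -0.06. The 51 may have copies under other names. In the test of all 60500 transcripts, of which 0.0777% passed, 354 were of members: 0 passed (edgeR, Benjamini-Hochberg over transcripts), 76 had an unadjusted p below 0.05, 75 of them lower, and 321 were negative. Of all transcripts tested, 9.44% had an unadjusted p below 0.05, 4.43% in the lower direction, and 50.5% were negative. Transcripts of a gene share reads and are not independent. Besides copies, 14 members overlap another gene, 12 of them one on the other strand, and reads of such pairs cannot be told apart with certainty. Among the genes described, Rpl12 had a mean of 2072 counts over the 6 libraries beside 460 in the overlapping Lrsam1. Rpl18 had 1163 beside 489 in Sphk2, Rpl23a had 3376 beside 2555 in Tlcd1, and Rps4y2 had 141 beside 1106 in Tmtc1. The largest overlapping count, named after it was seen, was on the same strand: 61632 in Gm20388 beside 2448 in Rpl13.

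Members are short, and in these libraries short transcripts as a class also had more negative than positive values. The median length was 791 nt in the members and 2674 nt over the 14629 tested genes with a known length. Among 4264 other genes of 490 to 1908 nt, the range that holds the middle of the members, 60.7% were negative. Their median log2 fold change was -0.03, and 2 rose and 0 fell in the edgeR test. An unadjusted p below 0.05 was found in 382, of which 289 were lower in Dicer1-ifKO and 93 higher. With genes split by length into 10 bins of like size, in the shortest bin, 27 to 816 nt, the other genes had a median of -0.02 and the 37 members -0.08. In the next bin, 817 to 1341 nt, the other genes had -0.04 and the 23 members -0.07. The longest bin had a median of 0.06. When each library was corrected for transcript length and GC content, 53 of 71 members were negative and the median was -0.04. The median of all genes in that fit was -0.01. The fit covered only members with a known length, and the uncorrected count for these 71 is not reported here. The part that length had in the members' values beyond this was not tested.

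**Figure D5:**
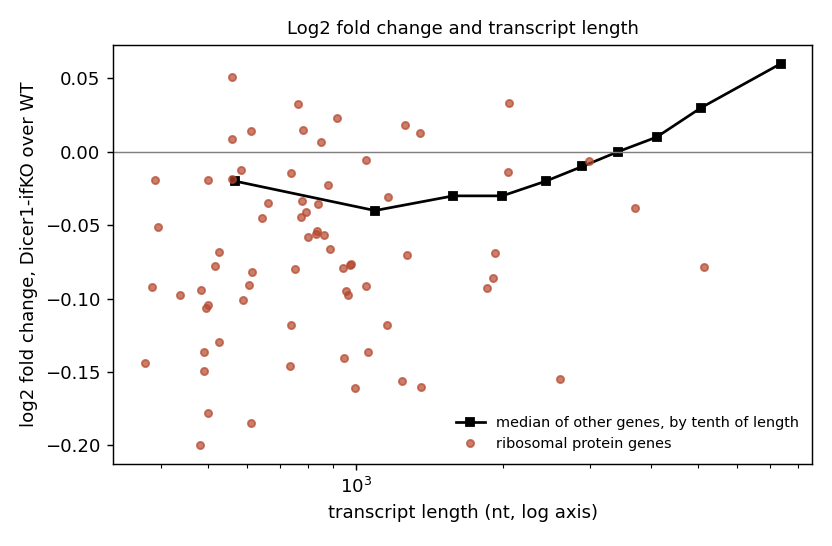
Log2 fold change of Dicer1-ifKO over WT against transcript length (nt, log axis), for ribosomal protein genes and for the medians of other genes in 10 bins of length. Medians of other genes are -0.02 in the shortest bin, -0.04 in the next and 0.06 in the longest, and the members gather at the short end, with medians of -0.08 and -0.07 in the shortest bin and the next.

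The log2 fold changes were also set out by these starts, with no test of the difference. The 12 members with a C and its run at the annotated first base had a median of -0.05, 11 of them negative, and the 50 others with an entry had -0.08, 45 of them negative. The 46 members with a pyrimidine run within 20 bases of the start had a median of -0.07 on the log2 scale, and the 16 without one also -0.07. Rpsa and Rpl22 both lacked a run in the sequences shown above, and had log2 fold changes of -0.15 and 0.03.

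MicroRNA seed matches were few in these genes, whose 3′ UTRs are short. In 82 members the 3′ UTR had a median of 87 nt and the coding part 453 nt, against 1003 and 1404 nt in 13888 genes. The seeds of 9 microRNAs abundant in brain were searched as the reverse complement of bases 2 to 8, and 5 of the microRNAs are shown 5′ to 3′ from RefSeq with these bases in capitals, 4 with the most sites or a well-known role and 1 without a site.
miR-181a: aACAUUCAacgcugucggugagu
miR-29a: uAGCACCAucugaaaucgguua
miR-125b: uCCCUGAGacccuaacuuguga
let-7a: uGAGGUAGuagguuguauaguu
miR-128: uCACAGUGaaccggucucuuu
No seed is shared among these 5. A site for any of the 9 was found in 14 members (17.1%), against 8297 genes (59.7%). Sites for miR-181a were found in 6 members (7.32%, against 16.7% of genes), among them Rpl22 and Rpsa, and for miR-29a in 5 members (6.10%, against 13.9%). Sites for miR-125b were found in 3 members, for let-7a in 2, among them Rpsa, and for miR-128 in 0, where 20.4% of genes had one. The 14 members with a site had a median of -0.07 on the log2 scale, 2 of them positive, and the 68 without had -0.06, 9 of them positive. These libraries do not measure the microRNAs themselves.

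Related genes were described in the same fit, and again none passed it over all genes. Of all genes tested, 51% were negative, and 10.4% had an unadjusted p below 0.05 in edgeR, 4.8% in the lower direction. Among 23 tested mRNAs of other proteins with a pyrimidine start, such as the elongation factors, 17 were negative with a median of -0.03 and 3 had an unadjusted p below 0.05, all lower. Eef1b2, an exchange factor subunit of elongation factor 1, had 76.4, 83.1 and 81.0 CPM in Dicer1-ifKO and 93.2, 86.9 and 90.6 CPM in WT, without overlap (log2 fold change -0.17, SE 0.05, edgeR adjusted p 0.221). Tpt1, the translationally controlled tumour protein, had -0.13 (SE 0.05), and Npm1, nucleophosmin of the nucleolus, -0.12 (SE 0.05).

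Genes that build ribosomes also had mostly negative values. Of 49 assembly factors 40 were negative, with a median of -0.08. An unadjusted p below 0.05 in edgeR was found in 4, all lower in Dicer1-ifKO. Among all genes tested the share was 10.4% in either direction and 4.8% in the lower direction. Nop10, a part of the snoRNA particles that modify ribosomal RNA, had 17.9, 17.1 and 18.8 CPM in Dicer1-ifKO and 21.5, 21.1 and 22.0 CPM in WT, again without overlap (log2 fold change -0.26, SE 0.08, edgeR adjusted p 0.218). Ppan had -0.24 (SE 0.10) and Heatr1 -0.19 (SE 0.08). RNA polymerase I makes ribosomal RNA. Of 19 tested genes of this enzyme and its factors, 15 were negative with a median of -0.07. Some of the 19, such as those named Polr2, encode subunits shared with other polymerases. An unadjusted p below 0.05 in edgeR was found in 1, Polr1c at -0.27 (SE 0.10). In both lists the median deviation of WT replicate 2, at 0.01 and 0.06, was not below those of the Dicer1-ifKO libraries, at -0.04 to -0.02 and -0.05 to 0.

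Genes of mTORC1, the S6 kinases, LARP1 and related kinases had more positive than negative values. Of 24 tested, 16 were positive and 8 negative, with a median of 0.01. An unadjusted p below 0.05 was found in 5, all higher, beside 980 of 17405 genes tested that were higher at this level. The list was not split by what its genes do to translation. Larp1 had 118, 115 and 114 CPM in Dicer1-ifKO and 104, 111 and 105 CPM in WT (log2 fold change 0.11, SE 0.05, edgeR adjusted p 0.396). Rps6ka2, a kinase of the RSK family, had 0.18 (SE 0.06), and Eef2k, the kinase of elongation factor 2, had 0.13 (SE 0.06). Of 4 tested snoRNA host genes 2 were negative and 0 had an unadjusted p below 0.05, with Gas5 at 0.06 (SE 0.07).

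Beside 10.4% of all genes in either direction and 4.8% in the lower direction, 2 of 76 mitochondrial ribosomal protein genes had an unadjusted p below 0.05 in edgeR. Each of the 2 was lower in Dicer1-ifKO. Their proteins serve a separate ribosome. Of these 76 genes 63 were negative, with a median of -0.06. Their summed levels were 2000, 1990 and 2030 CPM in Dicer1-ifKO and 2140, 2040 and 2060 CPM in WT, so that each Dicer1-ifKO library lay below each WT library, while the cytosolic members summed to 10100, 10200 and 10300 CPM in Dicer1-ifKO and 11200, 9940 and 10800 CPM in WT, with overlap. Mrps18c had -0.18 (SE 0.08) and Mrpl34 -0.30 (SE 0.14).

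Markers of the other cell types of the tissue were set beside the members in the same fit. Of 9 marker lists none had a gene called in edgeR, and 3 genes in all had an unadjusted p below 0.05, beside 10.4% of all genes tested. The median log2 fold change was -0.16 for microglia (5 of 6 negative), -0.15 for choroid plexus (1 of 2), -0.07 for dentate granule cells (2 of 3), -0.04 for astrocytes (2 of 4), -0.01 for oligodendrocytes and for excitatory neurons (2 of 4 each), 0.05 for inhibitory neurons (1 of 5), 0.07 for erythrocytes (0 of 2) and 0.08 for endothelium (1 of 3). Microglia markers summed to 265, 260 and 263 CPM in Dicer1-ifKO and 280, 263 and 263 CPM in WT, so WT replicate 1 was the highest, as for the ribosomal proteins, whereas WT replicates 2 and 3 were nearly equal. Oligodendrocyte markers summed to 4000, 3860 and 3460 CPM in Dicer1-ifKO and 3890, 3320 and 4100 CPM in WT, with the lowest value in WT replicate 2 and the highest in WT replicate 3. The part of these cells in the members' values was not tested.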

How the data were processed

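Per the labels' protocols, total hippocampal RNA of 3 mice was pooled for each library, and 3 libraries per genotype, stated to be biological replicates, were prepared with a kit for stranded mRNA. The submitters' processing notes name TopHat2 2.0.6, Bowtie2 2.0.5, DESeq2, SAMtools 0.1.18 and CASAVA 1.8.2, and as builds mm10 and GRCm38. How reads were counted (counter, annotation, strand, reads that map to several places) is not given in the sources used here. For every transcript a deposited file gives raw and normalised counts, per the file headers. The deposited counts are whole reads, and reads in shared exons were counted for each transcript that holds them. The deposited normalised values are a signal, the count over a library-wide factor, and were left untested.

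For each symbol the transcript of highest mean count was taken. The design had assumed counts per gene. Dicer1-ifKO was compared with WT with R 4.3.3 and edgeR 4.0.16: genotype alone was in the model, low genes were removed by filterByExpr (minimum count 10), libraries were scaled by TMM, and p-values of the quasi-likelihood F-test were adjusted by Benjamini-Hochberg for 17405 genes (threshold 0.05). The prior count of log2 fold changes was 0.125. CPM is the count scaled to library size after TMM. The deviation of a gene in a library is its log2 CPM (prior count 2) minus the gene's mean over all 6 libraries. DESeq2 1.42.0, other scalings, no filter, summed transcripts, a length and GC offset, a replicate block and leaving out each library were alternatives. The test of all transcripts, the share of counts without each library, the members with no pseudogene symbol and the microRNA list were chosen after seeing the data. The edgeR step was tested on simulated data.

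The members and gene lists were chosen with earlier results of these data known. Genes named are Dicer1, the members at both ends of the log2 fold change (6 each, mean log2 CPM 1 or more), the 3 highest and 3 lowest levels per kb, the stalk genes, Rpsa, 8 paralog pairs, Rps6, Rps19bp1, and up to 3 genes with the smallest p in each related list; other names are marked as chosen after their values were seen. Some genes that this rule takes are not reported here. Transcript lengths and 3′ UTRs come from GENCODE M21, and start sequences and microRNAs from RefSeq (GRCm38.p6).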

Additional observations from a re-analysis of the deposited data

How the results depend on the processing

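The number of ribosomal protein genes called lower stayed at 0 in every alternative except without WT replicate 2, and ranged from 0 to 2 when each library was left out; none was called higher. Negative log2 fold changes numbered 72 with DESeq2 size factors, upper-quartile factors, TMM factors without ribosomal protein and mitochondrial genes, the DESeq2 Wald test and the replicate block, 73 of 85 without a filter, 74 with summed transcripts and 53 of 71 with the length and GC offset. The median was -0.04 with that offset, and -0.07 with summed transcripts. Leaving out each library gave 55 to 82 negative values and medians of -0.11 to -0.02. The difference in the share of counts lay between -0.0838 and -0.0285 percentage points when each library was left out. Over all genes, 62 were called higher and 18 lower by the DESeq2 Wald test, 108 and 43 without a filter, and 6 and 1 with summed transcripts; 10 were called lower with the length and GC offset. Leaving out each library gave 6 to 72 higher and 0 to 33 lower. The causes were not tested.

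The labels do not say whether replicate numbers pair the libraries. Same-numbered libraries correlated at -0.07, 0.03 and -0.09 in their deviations from the group means, and other pairs across the groups at -0.06 to 0.13. With groups of 3, such values cannot settle whether libraries were handled in pairs. With the replicate block, 2 of all genes were called lower (20 higher), and 0 ribosomal protein genes. Signs of values near 0 changed. With summed transcripts Rpl22 had a log2 fold change of -0.04 and Rpl7a 0.00. With the length and GC offset Rps29 and Rpl7 had 0.00, Rps6 had 0.01 and Dicer1 -0.02. Across fits without 1 library, log2 fold changes ranged from -0.06 to 0.12 for Rpl37a, -0.02 to 0.07 for Rpl22, -0.04 to 0.10 for Rpl7a, -0.08 to 0.02 for Rps29, -0.05 to 0.07 for Rpl23a, -0.12 to 0.02 for Rps19bp1, -0.17 to 0.05 for Rps4y2, -0.03 to 0.05 for Rpl3, -0.08 to 0.01 for Rpl7, -0.06 to 0.02 for Rps6, -0.03 to 0.14 for Gas5, -0.16 to 0.02 for Snhg12, and -0.06 to 0.17 for 1500012F01Rik. The sign of Rps27l (-0.32 to -0.02), Rplp0 (-0.26 to -0.09), Rpl36a (-0.18 to -0.02), Rpl10 (-0.11 to -0.02) and Rpl36al (-0.11 to -0.02) held but the size did not, and Rplp1 ran from -0.18 to 0.00. Depth limits Rps27l, Rps4y2 and Rps19bp1 the most among the named members tested, with 85 to 190 counts per library and the widest SE.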
